A study of Danio rerio with 6 samples.

Results

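Nuclear receptors and the coregulators that bind them were followed in zebrafish embryos of the sphere stage, when transcription from the zygotic genome has recently begun. The members were 53 genes, found by symbol among 11917 genes that could be named on the array, and each was represented by 1 of the array's 38489 targets. They comprised 46 receptor genes, 3 coregulator genes (ncoa and ncor) and 4 genes of receptor-associated proteins whose symbols begin like those of a receptor. The coactivator gene ppargc1b was counted among the latter 4. The gene hnf4a was left out by the rule, and for genes such as ncoa1 and ncoa3 no target carried the name.

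Total RNA had been hybridised to 1-colour arrays labelled with Cy3, with 3 arrays for control-MO and 3 arrays for nanog-like-MO1 injections. A morpholino (MO) is an antisense oligonucleotide that blocks translation or splicing of its target, here nanog-like, a maternal homeobox factor now named nanog. Control embryos are labelled normal in phenotype and the others as having a gastrulation defect. The arrays of a group are biological replicates, of separate cultures by the labels and of separate embryos by the design text. All embryos were injected, and the strain is not given in the labels. Because whole embryos were measured, fewer cells of a type and less RNA per cell cannot be told apart.

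Nuclear receptors are transcription factors, many of which are switched by small lipid-soluble ligands such as steroids, thyroid hormone, retinoids and fatty acid derivatives. Many of them bind DNA as a heterodimer with a retinoid X receptor (RXR). Without ligand such receptors hold corepressors, which recruit histone deacetylases, and ligand exchanges these for coactivators. Orphan receptors have no established natural ligand, and several act through the level at which they are expressed.

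Values are normalized intensities on the log2 scale, and differences are morpholino minus control, so that a difference of 1 is a 2-fold change. Pairs of arrays correlated at 0.9753 to 0.9887 over all targets. The transcript of nanog read 14.91 ± 0.06 in control embryos and 14.89 ± 0.06 after the morpholino (SD, n = 3), which is no check of the knockdown, since blocked translation need not lower a transcript. Of 7 genes listed as marks of the embryo at this stage, 4 lay above the 75th percentile of all targets and 0 under the 25th. By the test 3 of them were lower (sox3, tbx16 and vox). Levels of a list were summed on the linear scale and are given as log2, so its brightest genes weigh most. For these 7 genes the sums ran from 16.38 to 16.53 in control and from 15.88 to 15.94 in morpholino arrays. Summed marker levels ran from 14.72 to 15.57 in control and 15.09 to 15.73 in morpholino arrays for the enveloping layer (10 of 12 listed genes measured), and from 14.90 to 15.02 and 14.91 to 15.16 for germ cells (5 of 6). For the yolk syncytial layer (6 of 9 measured) they ran from 12.07 to 12.81 and from 11.0 to 11.53. Of these 6 genes 2, mxtx2 and gata6, were lower by the test, as were 0.39% of all targets. Differences in this list were below 0 for 4 genes and above 0 for 2, gata5 (0.51, SE 0.34) and apoa1a (0.17, SE 0.15). Of the 10 enveloping layer genes 0 were higher or lower by the test, with 5 differences above and 5 below 0. The groups did not overlap for 3 of them, 30%, against 15.3% of all targets. These 3 were evpla (2.16, SE 0.43), cldne (0.64, SE 0.22) and cldnf (0.68, SE 0.23), all higher after the morpholino. The part of these markers in the values of the members was not tested.

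The brightness of a target depends on its probes as well as on its transcript. The order of members by level was therefore not read as an order of transcript amounts, and served only to choose some of the members named. Of the 53 members, 8 were dim, under the 25th percentile of target means (6.74), and 9 lay above the 75th percentile (11.36). Bright targets included those of thrap3b, ncor1, rxrba, thraa, nr3c1, ncoa2 and nr2f6a. The dim ones were nr0b1, nr1h4, nr2e3, nr2f6b, nr3c2, nr5a5, rorb and rorcb. On this scale differences of dim targets are understated.

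None of the 53 members passed the test between the groups. At an adjusted p under 0.05 (limma) 0 were higher and 0 were lower, where 0.647% of all targets were called, 0.257% higher and 0.39% lower. Beside so low a background a count of 0 among 53 is no result about the members. At an unadjusted p under 0.05 there were 4 members, 7.55% of them, against 10.3% of all targets. The ranges of the groups were apart for 8 members, 15.1%, against 15.3% of all targets. Of these, 6 were higher in all morpholino arrays (7.36% of all targets were) and 2 lower (7.97%). The shares at an unadjusted p and without overlap lay under or near the background.

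Differences ranged from -0.58 to 0.71 on the log2 scale, with 28 above and 25 below 0. Their median was 0.006, beside -0.012 over all targets, and their median size was 0.18, beside 0.13. With the arrays centred on their own medians the members' median was -0.059, and in the authors' value table -0.042, so its sign depended on the scaling. For 47 of 53 members, 88.7%, the 95% interval lay wholly within a 2-fold change either way, as it did for 86.8% of all targets. The 6 members whose intervals reached beyond 2-fold were rxrga, rorcb, nr2f1a, nr5a2, ppargc1b and thrap3a. For 22 members the interval lay within a 1.5-fold change, 41.5%, against 56.2% of all targets. This share varied with brightness. From the 25th to the 75th percentile (36 members) it was 36.1%, against 34.2% of all targets there. Under the 25th (8 members) it was 62.5% against 86.7%, and above the 75th (9 members) 44.4% against 70%. The median size of difference varied with brightness too. In the same order of ranges it was 0.19 against 0.2, 0.11 against 0.07 and 0.18 against 0.12.

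**Figure D1:**
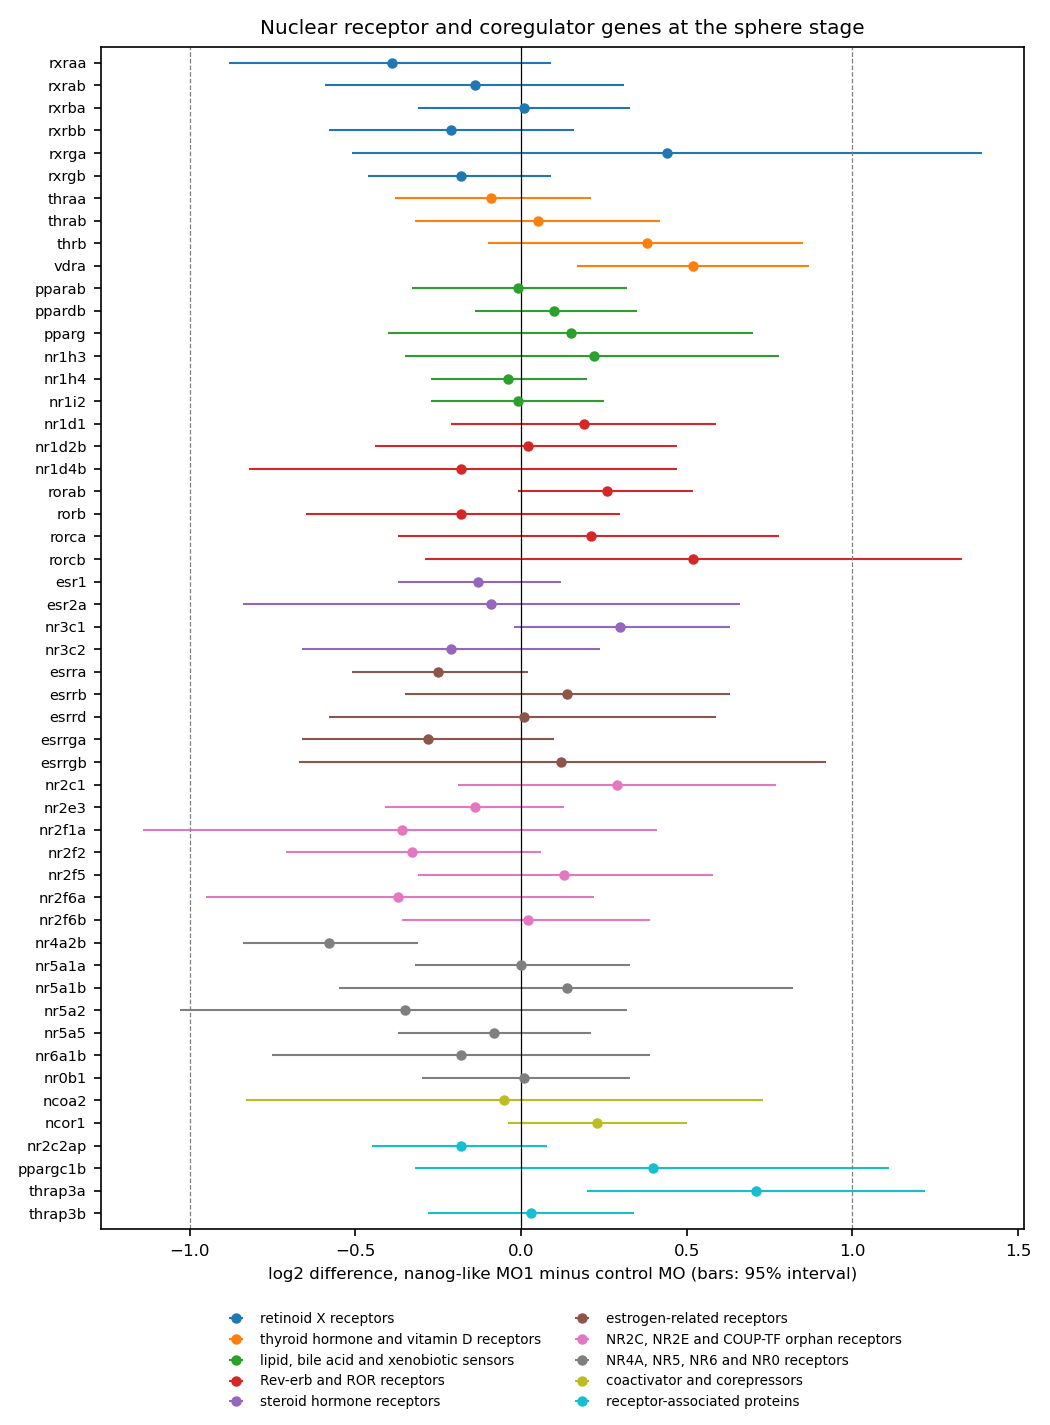
Log2 difference (morpholino minus control) of 52 members, coloured by role, with 95% intervals from the fit over all targets; dashed lines mark a 2-fold change. Points run from -0.58 for nr4a2b to 0.71 for thrap3a, and 6 intervals reach beyond a dashed line.

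**Figure D2:**
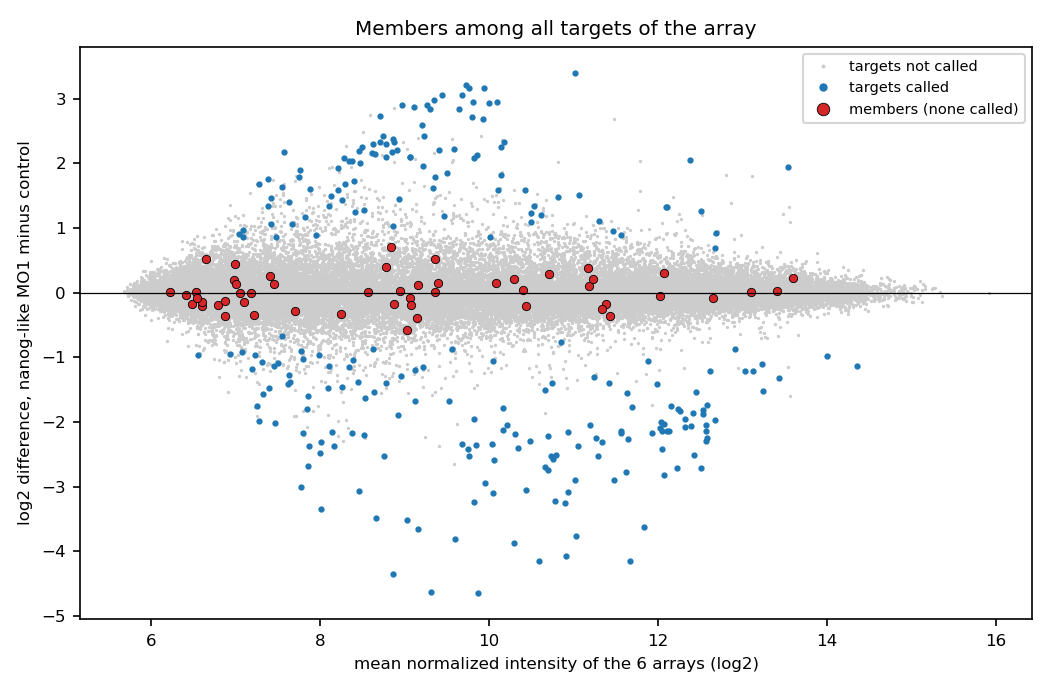
Log2 difference against the mean normalized intensity of the 6 arrays for all 38489 targets, with the 249 called targets in blue and 52 members in red. The members lie inside the band of targets that were not called.

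The retinoid X receptors, common partners of many other receptors, were represented by 6 genes, and the groups overlapped for each. The target of rxrba read 13.07, 13.30 and 12.93 in control arrays and 13.03, 13.24 and 13.06 in morpholino arrays. Its difference was 0.01 (SE 0.13, 95% interval -0.31 to 0.33), so that the interval excluded changes beyond 1.5-fold. Levels of rxrbb were 10.33, 10.61 and 10.68 against 10.14, 10.31 and 10.55, a difference of -0.21 (SE 0.15). For rxraa the arrays gave 9.44, 9.44 and 9.16 in control and 9.10, 9.23 and 8.53 in morpholino embryos, and replicate 3 of the latter was the lowest of all. The difference of rxraa was -0.39 (SE 0.20, adjusted p = 0.593).

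Targets of rxrab, rxrgb and rxrga were dimmer, with group means between 6.70 and 7.21. The difference was -0.14 (SE 0.19) for rxrab and -0.18 (SE 0.11) for rxrgb. The values of rxrga scattered most among the retinoid X receptors, at 7.19, 6.63 and 6.49 in control and 7.53, 7.76 and 6.33 in morpholino arrays. Its difference of 0.44 had an SE of 0.40, and inside the morpholino group replicate 3 lay below every control array while replicates 1 and 2 lay above.

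Among the receptors of hormones that pair with RXR, vdra, a vitamin D receptor gene, had the largest difference. It read 9.08, 9.23 and 8.99 in control and 9.82, 9.64 and 9.38 in morpholino embryos, so that the groups did not overlap. The difference was 0.52 (SE 0.14, 95% interval 0.17 to 0.87), or 1.43-fold, and did not pass over all targets (adjusted p = 0.286). The thyroid hormone receptor gene thrb read 11.32, 10.85 and 10.79 against 11.46, 11.56 and 11.07, a difference of 0.38 (SE 0.20) with overlapping groups. The alpha receptor genes thraa and thrab lay close to 0, with differences of -0.09 (SE 0.12) and 0.05 (SE 0.15), and for both the interval excluded a 1.5-fold change.

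Lipid, bile acid and xenobiotic sensors showed the smallest median size of difference of any role, 0.07 over 6 genes. Sizes varied with brightness, and the smallest here were those of the dimmer targets, pparab, nr1i2 and nr1h4. This rank is therefore no result about the role. The groups overlapped for all 6, where 15.3% of all targets had groups that did not overlap. The fatty acid sensor ppardb read 11.11, 11.08 and 11.19 in control and 11.12, 11.31 and 11.26 in morpholino arrays, a difference of 0.10 (SE 0.10). For pparg, a regulator of fat cell formation in mammals, it was 0.15 (SE 0.23) and for pparab -0.01 (SE 0.13). The oxysterol receptor gene nr1h3 read 11.51, 11.25 and 10.61 against 11.24, 11.50 and 11.29, a difference of 0.22 (SE 0.24), where control replicate 3 was the lowest array. The bile acid receptor gene nr1h4 was dim in both groups, at 6.43 ± 0.06 and 6.39 ± 0.07 (SD, n = 3). The xenobiotic receptor gene nr1i2 read 7.19 ± 0.14 and 7.18 ± 0.04 (SD, n = 3).

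Rev-erb and ROR receptors bind the same DNA elements, the former as repressors and the latter as activators, and both act in the circadian clock. Of these 7 genes rorab alone had groups that did not overlap, at 7.26, 7.34 and 7.25 in control and 7.55, 7.67 and 7.40 in morpholino arrays. The difference of rorab was 0.26 (SE 0.11, adjusted p = 0.501), and that of rorca was 0.21 (SE 0.24). For rorcb it was 0.52 (SE 0.34), and morpholino replicate 3 stood apart at 7.68, where replicates 1 and 2 read 6.74 and 6.30 and the controls 6.26 to 6.47. The Rev-erb genes nr1d1, nr1d2b and nr1d4b had differences of 0.19 (SE 0.17), 0.02 (SE 0.19) and -0.18 (SE 0.27), and rorb, a dim target, one of -0.18 (SE 0.20).

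Of the steroid hormone receptors, nr3c1, the glucocorticoid receptor gene, was the one whose groups did not overlap. It read 11.98, 11.77 and 12.01 in control and 12.32, 12.34 and 12.02 in morpholino embryos, and the lowest morpholino array lay just above the highest control array. The difference was 0.30 (SE 0.13, 95% interval -0.02 to 0.63, adjusted p = 0.516). A further target of nr3c1 read 9.48, 9.27 and 9.20 against 9.70, 9.76 and 9.57, again without overlap, with a difference of 0.36 (SE 0.12, adjusted p = 0.364). The mineralocorticoid receptor gene nr3c2 was dim and differed by -0.21 (SE 0.19). Differences of the estrogen receptor genes esr1 and esr2a were -0.13 (SE 0.10) and -0.09 (SE 0.31), and esr2a scattered by 0.44 and 0.50 (SD, n = 3) within the groups.

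Estrogen-related receptors are orphan receptors, of which the alpha form is known in mammals as a regulator of mitochondrial genes. The target of esrra read 11.41, 11.55 and 11.42 in control and 11.08, 11.32 and 11.25 in morpholino arrays, lower in all 3 of the latter. Its difference was -0.25 (SE 0.11, 95% interval -0.51 to 0.02, adjusted p = 0.524). The groups of the other 4 overlapped. For esrrga the arrays gave 7.91, 7.71 and 7.92 against 7.55, 7.84 and 7.31, a difference of -0.28 (SE 0.16). The genes esrrb, esrrd and esrrgb differed by 0.14 (SE 0.20), 0.01 (SE 0.24) and 0.12 (SE 0.33). In each of these 3 control replicate 1 was the lowest array of its group, at 8.99 for esrrb, 8.83 for esrrd and 8.65 for esrrgb.

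COUP-TF genes (nr2f) encode orphan receptors that act mostly as repressors and pattern several tissues later in development. The target of nr2f2 read 8.24, 8.60 and 8.39 in control and 7.94, 8.36 and 7.96 in morpholino arrays, with a difference of -0.33 (SE 0.16, adjusted p = 0.572) and overlapping groups. Its 3 further targets differed by -0.28, -0.25 and -0.15, all of the same sign, though targets of 1 gene are not replicates. The one at -0.25 was dim, rests on 3 probes and was named by a map marker. It lies apart from the others on chromosome 18 of assembly Zv7, from 23645985 to 23652703. The one at -0.15 lay near the 25th percentile of targets, and its groups did not overlap, at 6.93, 6.94 and 6.80 against 6.74, 6.72 and 6.78. For nr2f6a the values were 11.95, 11.29 and 11.62 against 11.16, 10.93 and 11.66. The highest morpholino array lay above the control arrays at 11.29 and 11.62. The difference of nr2f6a was -0.37 (SE 0.24), and that of its further target -0.08 (SE 0.20). Differences were -0.36 (SE 0.32) for nr2f1a, 0.13 (SE 0.19) for nr2f5 and 0.02 (SE 0.16) for nr2f6b. The testicular receptor gene nr2c1 differed by 0.29 (SE 0.20), with 10.12 in control replicate 1 against 10.72 to 10.92 in every other array. The photoreceptor receptor gene nr2e3, dim in both groups, differed by -0.14 (SE 0.11).

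The smallest adjusted p of any member belonged to nr4a2b, one of the zebrafish counterparts of the mammalian Nurr1 gene, an orphan receptor that can be induced within minutes of a stimulus. It read 9.40, 9.38 and 9.19 in control and 8.65, 8.78 and 8.81 in morpholino embryos, a gap wider than the range inside either group. The difference was -0.58 (SE 0.11, 95% interval -0.84 to -0.31), or 1.49-fold lower, with adjusted p = 0.123 over all targets. Of its 2 further targets one overlapped between the groups, at 8.90, 8.73 and 8.72 against 8.15, 8.97 and 8.35, with a difference of -0.29 (SE 0.22). The other differed by 0.09 (SE 0.18), so that the targets of nr4a2b did not share a sign. The 3 targets lie at different places of assembly Zv7, the one given here on chromosome 6 from 11481798 to 11485562 and the one at -0.29 on chromosome 6 from 7376152 to 7380626. Within the target given here the 10 probes had a coefficient of variation of 1.02.

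The NR5 receptors, which in mammals include regulators of steroid synthesis and of bile acid and early embryonic genes, and the NR0 and NR6 genes had overlapping groups. Differences were -0.35 (SE 0.28) for nr5a2, 0.00 (SE 0.14) for nr5a1a, 0.14 (SE 0.29) for nr5a1b and -0.08 (SE 0.12) for nr5a5. The gene nr6a1b, a counterpart of the mammalian germ cell nuclear factor, read 11.06, 11.65 and 11.73 against 11.12, 11.12 and 11.67, a difference of -0.18 (SE 0.24). For nr0b1, whose product lacks the usual DNA-binding domain, the difference was 0.01 (SE 0.13). On assembly Zv7 of the array design nr5a1b (chromosome 21, 30262477 to 30302334) and nr6a1b (30320425 to 30340468) lie 18.1 kb apart. Their differences, 0.14 and -0.18, were each smaller than their SE, so their signs are not resolved. Likewise thrb (chromosome 19, 7110828 to 7250941) and nr1d2b (7361887 to 7368719) lie 110.9 kb apart, with differences of 0.38 and 0.02.

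The corepressor gene ncor1 read higher in all 3 morpholino arrays than in any control array. Its target gave 13.47, 13.48 and 13.51 against 13.90, 13.60 and 13.65, a difference of 0.23 (SE 0.11, adjusted p = 0.572). With the arrays centred on their medians the difference of ncor1 was 0.10.

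The coactivator gene ncoa2 read 12.42, 11.30 and 12.45 in control and 12.07, 12.18 and 11.76 in morpholino arrays. Control replicate 2 lay below every other array, and the difference of -0.05 had an SE of 0.32. Without control replicate 2 the difference was -0.43. Of the receptor-associated genes, thrap3a had the largest difference of any member, 0.71 (SE 0.21, 95% interval 0.20 to 1.22, adjusted p = 0.318), or 1.63-fold. Its arrays gave 8.80, 8.62 and 8.06 against 9.08, 9.40 and 9.11, without overlap, but the target rests on 3 probes where most members had 12. Its paralog thrap3b, among the bright targets, differed by 0.03 (SE 0.13), from 13.27, 13.63 and 13.27 to 13.45, 13.43 and 13.38. Differences were 0.40 (SE 0.30) for the coactivator gene ppargc1b and -0.18 (SE 0.11) for nr2c2ap.

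**Figure D3:**
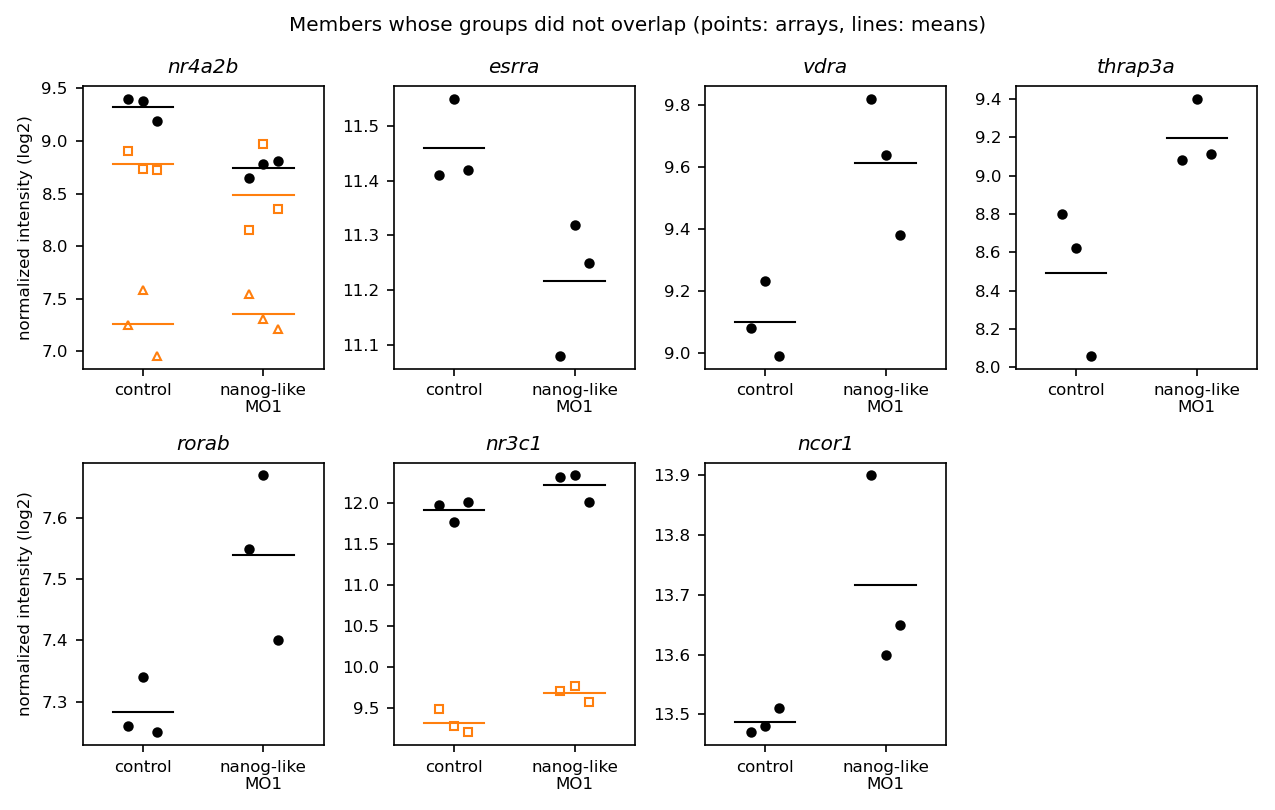
Normalized intensity (log2) of each array for 7 members whose groups did not overlap, with black points for the target chosen by the rule, open orange symbols for further targets and lines at the group means. The further target of nr3c1 does not overlap between the groups either, while those of nr4a2b do.

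Array numbers in the labels fall into 3 ranges, of which 1 held all control arrays and morpholino replicate 3, and the other 2 held 1 morpholino array each. Inside that range the differences of 7 members whose groups did not overlap were -0.51 for nr4a2b, -0.21 for esrra, 0.28 for vdra, 0.62 for thrap3a, 0.11 for rorab, 0.10 for nr3c1 and 0.17 for ncor1. Their signs are fixed by the lack of overlap, so they are no separate support. For vdra, rorab and nr3c1 the value inside the range was more than 1.5 times smaller than over all arrays. These 7 kept their sign with the arrays centred on their medians or on the reference genes and in the authors' value table. The median over all targets was -0.100 with the first centring and 0.118 with the second, beside -0.012. The first moved differences down and the second up. Part of this agreement was thus given beforehand, and it is no separate support.

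Of the 53 members 13 had more than 1 target, giving 18 further targets, and none of these 18 passed the test. All targets of a gene had the same sign for 9 genes and mixed signs for 4, which were esrrb, nr2c2ap, nr4a2b and rxrba. The 3 targets of rxrba ran from -0.11 to 0.01. For ppargc1b the 2 targets differed by 0.40 and 0.68, the latter without overlap of the groups and with 8.59 in morpholino replicate 3 against 7.05 to 7.62 in every other array. In the former the same replicate was instead the lowest morpholino array, at 8.37 against 9.40 and 9.18. Probe sequences were not used here, so cross-hybridization between paralogs was not analysed.

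**Figure D4:**
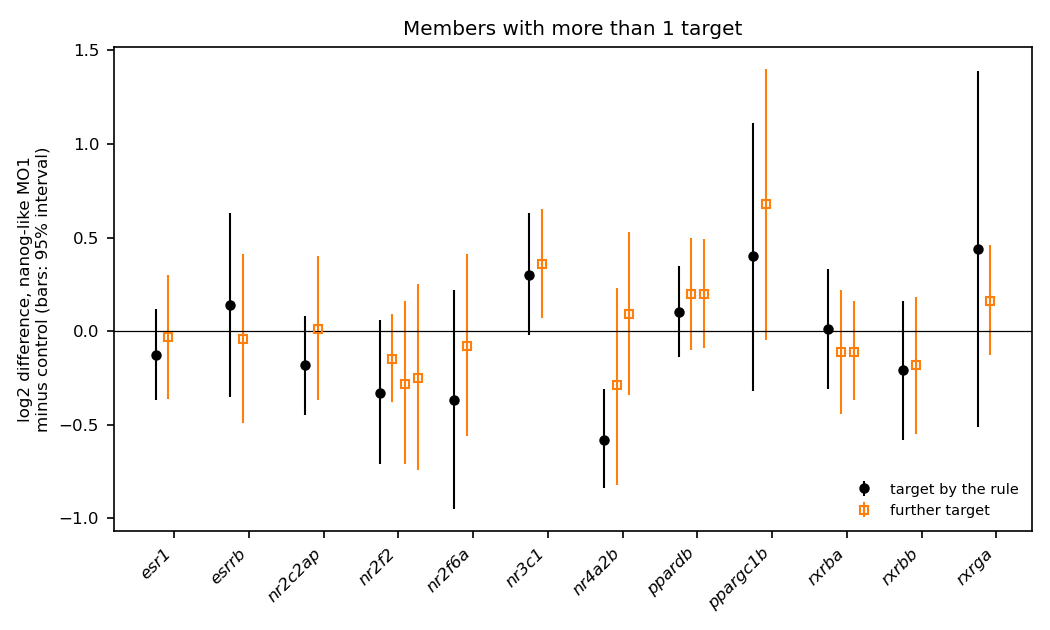
Log2 difference (morpholino minus control) of every target of 12 members with more than 1 target, with 95% intervals; filled points are the targets chosen by the rule and open squares the further ones. Intervals exclude 0 for 1 target each of nr4a2b and nr3c1.

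Other receptors, coregulators, ligand enzymes and known target genes were taken as lists, to be read beside the 0.647% of all targets called and the 10.3% with an unadjusted p under 0.05. Of 7 measured receptors outside the members, 0 were called and 0 had an unadjusted p under 0.05, and the median was -0.154. The largest differences there were -0.73 (SE 0.51) for hnf4b, with 11.24, 10.11 and 9.01 in the morpholino arrays against 10.78 to 10.94 in control, and -0.31 (SE 0.22) for the retinoic acid receptor gene rargb. Leaving out 1 array moved both: hnf4b was -1.29 without morpholino replicate 1 and -0.18 without morpholino replicate 3, and rargb was -0.53 without control replicate 1 and -0.10 without control replicate 2. Of 12 other coregulators 0 were called and 1 had an unadjusted p under 0.05, with a median of 0.09 that was -0.046 with the arrays centred on their medians. The largest there were 0.49 (SE 0.15, adjusted p = 0.323) for tbl1x, which encodes a subunit of a corepressor complex, and -0.24 (SE 0.25) for trrap, which ran from -0.47 without morpholino replicate 3 to -0.09 without morpholino replicate 2. The tbl1x target read 11.84, 11.39 and 11.41 against 12.01, 12.11 and 11.99, so that it was higher in all morpholino arrays.

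Enzymes and carriers of receptor ligands had 1 call among 18 measured genes, lower, and a median of -0.007. At an unadjusted p under 0.05 there were 4 genes, 22.2%, against 10.3% of all targets. The groups did not overlap for 4, 22.2%, against 15.3% of all targets. The list was chosen with earlier results of these data known, so these shares are no result about ligand enzymes. The call was cyp26a1, the enzyme that breaks down retinoic acid and itself a target gene of retinoic acid receptors, which fell from 12.44, 12.57 and 12.64 to 10.17, 10.36 and 9.54. The difference was -2.53 (SE 0.22, adjusted p = 0.00683), and without control replicate 3 it was -2.48 with adjusted p = 0.0511.

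Among 21 measured genes known as receptor targets in fish or mammals, cyp26a1, which stands on both lists, was again the single call, and the median was 0.031. An unadjusted p under 0.05 was found for 5 of them, 23.8%, and the groups did not overlap for 6, 28.6%, against 15.3% of all targets. This list too was chosen with earlier results of these data known, so these shares are no result about receptor targets. Under the same limit, differences of 2-fold or more were measured for 679 of all 38489 targets and for 4 of the 21 genes. Besides cyp26a1 these were angptl4, a target of fatty acid receptors, at 1.70 (SE 0.36, adjusted p = 0.15), tsc22d3, a target of the glucocorticoid receptor, at -1.42 (SE 0.26, adjusted p = 0.109), and plin2, a lipid droplet protein gene, at 1.01 (SE 0.40, adjusted p = 0.465). The arrays of angptl4 gave 8.77, 7.65 and 8.37 against 9.77, 9.59 and 10.55, and those of tsc22d3 gave 10.91, 10.11 and 10.68 against 9.01, 9.53 and 8.89, so that neither overlapped, while the groups of plin2 did.

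Outside the members, hnf4a, a nuclear receptor gene of the yolk syncytial layer and later of liver and gut, fell from 8.57, 9.63 and 9.62 to 6.10, 6.63 and 6.08. That difference was -3.00 (SE 0.32, adjusted p = 0.0157), and with each array left out in turn it stayed between -3.35 and -2.83. It did not pass without control replicate 2 or 3 or without morpholino replicate 1 or 3, at adjusted p from 0.0623 to 0.0895. With the array number range as a term, a fit that rests on morpholino replicate 3 alone, the difference was -3.01 for cyp26a1 and -3.19 for hnf4a. That array was the lowest for both genes, so differences larger than over all arrays were given beforehand and are no separate support.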

How the data were processed

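Per the file headers, the authors deposited for each array 1 linear intensity per target, averaged over its perfect-match probes, together with probe counts and a coefficient of variation, which is a ratio of SD to mean. Per the submitters' processing notes RMA was used, and the deposited value table holds linear intensities whose centring is unknown. Array medians of the raw intensities ran from 408 to 529, and precision is limited by how many arrays there are. For the main values normexp (offset 50) corrected the background, quantile normalization followed, and log2 was taken last. All 38489 targets were fitted with limma 3.58.1 in R 4.3.3 (2-sided, group as the only term, Benjamini-Hochberg over all targets, threshold 0.05), and the fit was tested on simulated data. 95% intervals use its SE.

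Targets were named by RefSeq accession, current or older symbol, or a map marker on the target's own chromosome, through a RefSeq gene table of assembly GRCz12tu whose coordinates were not used. Of the members 8 were named by accession, 22 by current symbol, 18 by older symbol, 4 by marker and 1 by a protein name. The 1380 reverse-strand targets were left unnamed. The marker thrap44 names no gene of the table and was not counted. A symbol was taken as a member where it begins with a stem of the rule. Each gene was represented by the target with the highest mean in the authors' value table.

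Named by rule were members with an unadjusted p under 0.05 and no overlap, the 8 brightest, and the rxr, esrr, ncoa and ncor genes. Some of these were given with the values of every array and others by difference and SE. Further names were chosen after their values were seen. Of the lists, members called or else the 2 with the largest difference were named. Target genes beyond 2-fold were also named, after their values were seen. Values of 1 member, which the counts include, are not reported here. Members and lists were chosen with earlier results of these data known. Replicate numbers did not pair the arrays, with correlations of deviations of -0.013, -0.105 and 0.233 between same-numbered arrays. Alternatives were background correction, scaling, the value table, a filter on dim targets, variance moderation, left-out arrays, the replicate number and the array number range as terms, and the choice of target.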

Additional observations from a re-analysis of the deposited data

How the results depend on the processing

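No member tested passed under any of the 15 alternative fits (45 members in the fit without dim targets) or with the other choice of target, and the lowest adjusted p of a member over them was 0.105 (nr4a2b, no background correction). No paired analysis changed a call of a member: with the replicate block 46 targets were higher and 88 lower, against 99 and 150. With the array number range as a term, which equals the fit within that range, limma called 0 in each direction (unadjusted p under 0.05 in 3580 targets), and ligand metabolism and target genes had 0 lower. Centring on 12 reference genes (0 called, 1 at an unadjusted p under 0.05, median -0.117) gave 168 higher and 140 lower, and the values as deposited by the authors gave 163 higher and 206 lower. Leaving out each array in turn gave 35 to 66 higher and 60 to 119 lower, fewest without control replicate 3, 0 to 1 lower in ligand metabolism and in target genes, medians of -0.053 to 0.07 for members and -0.004 to 0.107 for other coregulators. In target genes median centring gave 2 lower. Medians after median centring, reference centring and in the value table were -0.059, 0.159 and -0.042 for members, -0.100, 0.118 and -0.029 for all targets, -0.046, 0.171 and 0.003 for other coregulators, and -0.096, 0.122 and -0.104 for ligand metabolism. With reference centring they were 0.021 for other receptors and 0.228 for target genes. The median was -0.041 for members with the range as a term and 0.111 for ligand metabolism without dim targets.

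Of the 53 members 19 kept their sign in every fit and, where they had more than 1 target, in every further target. The gene nr4a2b is not among these 19, through a further target. Signs turned with the range as a term for esrrb (-0.04), esrrd (-0.22), esrrgb (-0.13), nr0b1 (-0.01), nr2f1a (0.32), nr2f5 (-0.06), nr2f6a (0.05), nr6a1b (0.19), pparg (-0.14), ppargc1b (-0.22), rorb (0.03), rorca (-0.13), rxrba (-0.04), rxrbb (0.01), rxrga (-0.44), thrab (-0.15), thrap3b (-0.01) and trrap (0.24). In the value table they turned for esrrb (-0.00), nr0b1 (-0.05), nr1h3 (-0.06), nr1i2 (0.01), nr5a1a (-0.13), pparab (0.03), rxrba (-0.04) and rxrga (-0.01). Median centring turned esrrd (-0.03), nr0b1 (-0.06), nr2f6b (-0.10), rxrba (-0.11), thrab (-0.02) and thrap3b (-0.10). Reference centring turned esr1 (0.04), esr2a (0.11), ncoa2 (0.07), nr1d4b (0.03), nr1h4 (0.09), nr1i2 (0.18), nr2c2ap (0.02), nr5a5 (0.06), pparab (0.19), rxrab (0.06), thraa (0.01) and nanog (0.05). Further targets were opposite for esrrb (-0.04), nr2c2ap (0.01), nr4a2b (0.09) and rxrba (-0.11 each, mean of its targets -0.07). Leaving out arrays spanned 0 for esr2a (-0.34 to 0.16), esrrb (-0.02 to 0.33), esrrd (-0.26 to 0.17), esrrgb (-0.14 to 0.42), ncoa2 (-0.43 to 0.15), nr0b1 (-0.09 to 0.11), nr1d2b (-0.19 to 0.16), nr1d4b (-0.39 to 0.12), nr1h3 (-0.04 to 0.41), nr1i2 (-0.07 to 0.06), nr2f5 (-0.07 to 0.24), nr2f6b (-0.13 to 0.13), nr5a1a (-0.09 to 0.09), nr5a1b (-0.07 to 0.47), nr5a5 (-0.15 to 0.02), pparab (-0.13 to 0.09), pparg (-0.00 to 0.37), rxrab (-0.29 to 0.00), rxrba (-0.08 to 0.11), thraa (-0.16 to 0.01), thrab (-0.07 to 0.15), thrap3b (-0.03 to 0.15) and nanog (-0.05 to 0.02). The cause was not tested. The number of arrays limits the precision, and the offset compresses differences of dim targets.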
